A study of Bos taurus with 21 samples.

Results

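The 10 Toll-like receptor genes TLR1 to TLR10 were followed in milk somatic cells, as the rows of those symbols in the deposited count tables. They were 10 of 13570 genes, of which 12333 had a count in at least 1 cow, and no measured value was used to choose them. Milk of 21 Holstein cows from 1 farm was sampled, and RNA of its somatic cells was sequenced, 1 library per cow. The cows were labelled as a high yielding group (HY, 9 cows) and a low yielding group (LY, 12 cows), a grouping by breeding index in which no treatment or transgene was involved. Cows of both groups were in parity 2 to 4, lactation period ranged from 41 to 270 days, and milk yield, fat, protein and solid were given as values with no unit, which could be negative. The milk yield values spanned 181.118 to 468.053 for HY cows, and -404.27 to 86.92 for LY cows. Each cow was 1 biological replicate.

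Toll-like receptors are receptors of innate immunity that recognise conserved parts of microbes. At the cell surface, TLR2 pairs with TLR1 or TLR6 to bind bacterial lipoproteins, TLR4 binds lipopolysaccharide together with LY96 and with help from CD14, and TLR5 binds flagellin. In endosomes, TLR3 senses double-stranded RNA, TLR7 and TLR8 single-stranded RNA and TLR9 unmethylated CpG DNA, and these receptors need the chaperone UNC93B1 to get there. Most of them signal through the adaptor MYD88 to NF-kappaB and induce cytokines. Milk somatic cells are a mixture of macrophages, neutrophils, lymphocytes and shed epithelial cells, and the surface receptors are studied there for their part in the response to mastitis bacteria.

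Per cow, 7878557 to 28541904 reads were counted on genes. Levels are given as CPM, the count divided by the reads on genes and set to a common library size, then scaled with the TMM factor of each library, and tests were run on log2(CPM + 0.25). The TMM factor was lowest in HY cows 3262 (0.460) and 3280 (0.498), whose libraries had 43.3% and 34.4% of their counts on 3 casein genes and LALBA, and ranged from 0.749 to 1.48 in the other cows. These 2 libraries stood apart, so results are also given for the other 19 cows, and with the log2 TMM factor as a covariate. Markers of neutrophils, macrophages, T cells and epithelial cells were present in every library, and B cell markers CD79A and MS4A1 were at 0 in at least 1 cow each. The dendritic cell markers FLT3 and CLEC9A were not in the table.

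All 10 genes had counts, and 6 of them (TLR1, TLR2, TLR4, TLR6, TLR7 and TLR8) reached 10 counts or more in each cow. Read counts grow with transcript length, and no lengths were at hand, so levels were not compared between genes. TLR2 had 925 to 22839 counts per cow, and its level ranged from 154 CPM in HY cow 3262 to 1317 CPM in HY cow 3014, with a median of 492 CPM. TLR4 had 1086 to 28488 counts per cow, and its level ranged from 180 CPM in HY cow 3262 to 1279 CPM in LY cow 7643, with a median of 376 CPM. The highest TLR4 level was thus 7.09 times the lowest and the highest TLR2 level 8.57 times the lowest, the narrowest ranges of the 7 genes with a count in every cow.

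The receptors that partner TLR2 were measured on fewer reads. TLR1 ranged from 2.13 to 43.3 CPM with a median of 22.6 CPM, on 25 to 1050 counts. TLR6 ranged from 2.75 to 24.6 CPM with a median of 12.2 CPM, on 24 to 624 counts. TLR1 was lowest in HY cow 3262 and TLR6 in LY cow 2893, and both groups covered most of the range in either gene. In the RefSeq annotation of ARS-UCD2.0, TLR6 and TLR10 lie next to each other and overlap, and TLR1 is listed only as another name of these genes. Reads were counted on bosTau7, with a row for TLR1, and how the annotation used there separates these genes could not be checked. Ambiguous and multiply mapped reads were not counted either, so the division of reads among TLR1, TLR6 and TLR10 is uncertain.

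The RNA receptors of the endosome had wider ranges than TLR2, TLR4 and TLR6, whose highest level was 8.96 times its lowest. TLR1, at 20.3 times, was close to TLR7 and TLR8. TLR7 ranged from 8.25 CPM in HY cow 3280 to 180 CPM in HY cow 3064, with a median of 85.2 CPM. TLR8 ranged from 3.73 CPM in HY cow 3280 to 76.0 CPM in LY cow 2864, with a median of 42.2 CPM. TLR3 ranged from 1.77 CPM in HY cow 3280 to 64.9 CPM in HY cow 3064, with a median of 14.8 CPM. The highest level was 21.8, 20.4 and 36.7 times the lowest in TLR7, TLR8 and TLR3, and the TLR3 level of HY cow 3064 was 1.88 times that of the next cow.

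TLR5, TLR9 and TLR10 were measured on few reads. TLR5, the flagellin receptor, had at most 352 counts and a median of 2.95 CPM, and in HY cow 3064 its level of 13.9 CPM was 2.32 times that of the next cow. It had no count in HY cow 3280 and LY cow 2893, which allows levels of up to 0.589 and 0.344 CPM (3 counts, counting error alone). TLR9 had at most 72 counts and a median of 0.625 CPM, with no count in HY cows 3075, 3262 and 3280 and LY cow 2893. Its highest level was 3.23 CPM in LY cow 7643, 2.19 times that of the next cow. TLR10, a receptor with no settled ligand, had at most 67 counts and a median of 1.15 CPM, with no count in HY cows 3262 and 3280 and LY cow 2893. In the 4 cows with no TLR9 count, 3 counts correspond to 0.255 to 0.589 CPM, so levels somewhat below the median could not be detected there.

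**Figure D1:**
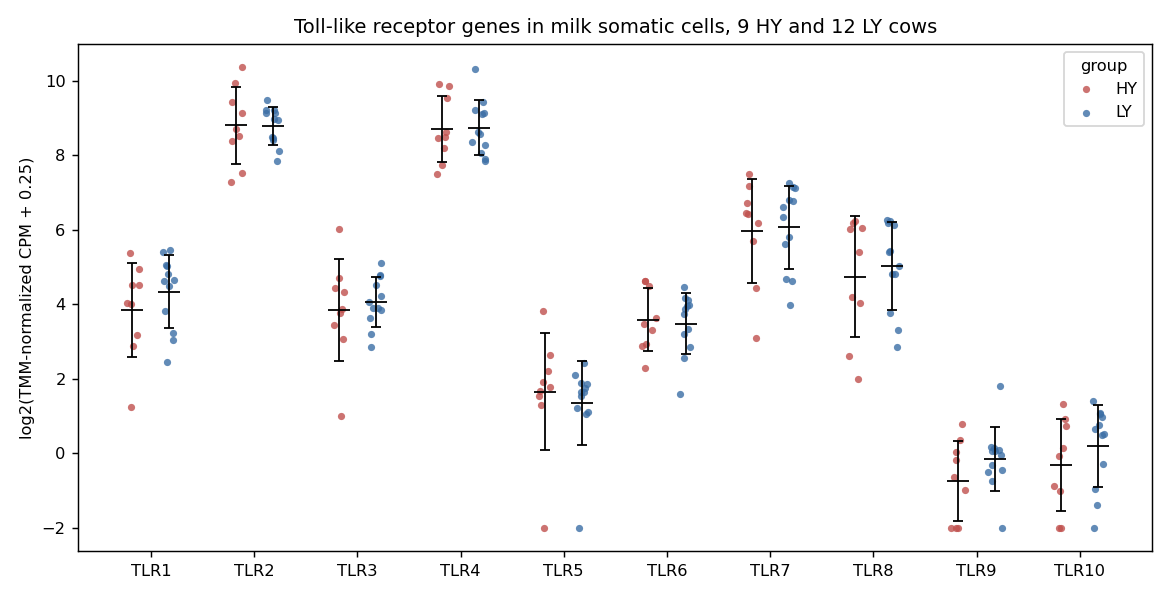
Level of each Toll-like receptor gene in every cow, as log2(TMM-normalized CPM + 0.25), with HY cows in red and LY cows in blue. Horizontal ticks are group means and bars are 1 SD over 9 HY or 12 LY cows, and points at -2 are cows with no count. HY and LY overlap in all 10 genes.

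No Toll-like receptor gene differed between HY and LY beyond the spread between cows. In edgeR's quasi-likelihood test 0 of 10 were called at an adjusted p under 0.05, where 0.0% of all 12333 genes tested were called, and 0 of 10 had an unadjusted p under 0.05, where 4.7% of all genes did. DESeq2 called 0 of 10 too, with 0 of 10 at an unadjusted p under 0.05. TLR2 was at 555 ± 385 CPM in HY (SD, n = 9) and 464 ± 149 CPM in LY (SD, n = 12), a log2 fold change of 0.26 (adjusted p = 0.999 in edgeR), and the means of its log2 levels differed by 0.02 (exact permutation p = 0.952). TLR4 was at 490 ± 303 CPM in HY and 485 ± 293 CPM in LY, a log2 fold change of 0.02 (adjusted p = 0.999 in edgeR), and the means of its log2 levels differed by -0.04 (exact permutation p = 0.914). The difference between the means was smaller than the SD of either group for both genes, and the SD of TLR2 was larger in HY than in LY.

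Log2 fold changes of HY over LY in the 10 genes ran from -0.68 to 0.64, and their median was 0.01, beside 0.02 over all genes. TLR5 had the highest, 0.64, with 4.30 ± 3.94 CPM in HY and 2.78 ± 1.28 CPM in LY (adjusted p = 0.999 in edgeR), and a difference of 0.30 in mean log2 level (exact permutation p = 0.624). TLR9 had the lowest, -0.68, with 0.506 ± 0.518 CPM in HY and 0.826 ± 0.800 CPM in LY (adjusted p = 0.999 in edgeR), and a difference of -0.59 in mean log2 level (exact permutation p = 0.177). Both values rest on low counts, and the groups overlapped in every gene. The direction of a difference this small moved with the scaling and with the estimate. By edgeR's fold change 6 of 10 genes were higher in HY with TMM factors and 4 of 10 with total counts, a scaling that moved the median of all genes from 0.02 to -0.17, and by the means of the log2 levels with TMM factors 3 of 10 were.

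Milk traits were next compared with the same levels over 21 cows by ordinary regression, which is equivalent to a test of Pearson's r. For milk yield, fat, protein and solid 0 of 10 receptor genes were called, as were 0.0% of all genes for each trait, and 0 of 10 had an unadjusted p under 0.05, beside 2.49%, 2.3%, 2.3% and 1.65% of all genes. Values of r ran from -0.11 (TLR10) to 0.27 (TLR6) for milk yield, and from -0.20 to 0.19 for protein. TLR9 had the lowest r with milk fat, -0.40 (permutation p = 0.0733, Spearman's rho = -0.44, permutation p = 0.0449, adjusted p over all genes = 0.9997). That r was -0.48 in HY and 0.02 in LY. TLR6 had the highest r with milk solid, 0.39 (permutation p = 0.0775, rho = 0.35, permutation p = 0.125, adjusted p = 0.9999), and it was 0.49 in HY and 0.52 in LY. Neither passed the correction over all genes.

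Lactation period was the label with the highest correlations. All 10 genes had a positive r with it over 21 cows, from 0.27 (TLR5) to 0.57 (TLR9), with a median of 0.41 beside 0.07 over all genes. The sign was positive for all 10 with DESeq2 size factors, total counts and a pseudocount of 1 CPM and in the 19 cows, but within the 12 LY cows TLR2 was at r = -0.01. None was called (lowest adjusted p = 0.133, 0.0% of all genes called), and 4 of 10 had an unadjusted p under 0.05, as did 20.3% of all genes. TLR9 had r = 0.57 (permutation p = 0.00709) and rho = 0.47 (permutation p = 0.0324), with a slope of 0.68 ± 0.23 (SE) on the log2 scale per 100 days. The 4 cows without a TLR9 count were at 59, 65, 101 and 108 days.

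TLR3 had r = 0.49 with lactation period (permutation p = 0.0184) and rho = 0.56 (permutation p = 0.00806), with a slope of 0.61 ± 0.25 per 100 days. TLR6 had r = 0.47 (permutation p = 0.0301) and rho = 0.37 (permutation p = 0.0979), with a slope of 0.47 ± 0.20. TLR8 had r = 0.46 (permutation p = 0.0350) and rho = 0.46 (permutation p = 0.0376), with a slope of 0.77 ± 0.34. Without the 2 cows farthest from the median lactation period, r was 0.68 for TLR9, 0.60 for TLR3, 0.53 for TLR6 and 0.57 for TLR8, and in the 16 cows whose mapping rate was below 85% the values were 0.71, 0.60, 0.58 and 0.54. The 5 cows above that rate were too few for a value of their own.

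The library measures moved with lactation period as well. The log2 TMM factor had r = 0.38 with it, the number of genes with a count r = 0.51 and the T cell score described below r = 0.40. With the log2 TMM factor as a covariate, r fell to 0.46 for TLR9, 0.34 for TLR3, 0.35 for TLR6 and 0.29 for TLR8, and in the 19 cows without HY cows 3262 and 3280 it was 0.50, 0.48, 0.41 and 0.36.

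**Figure D2:**
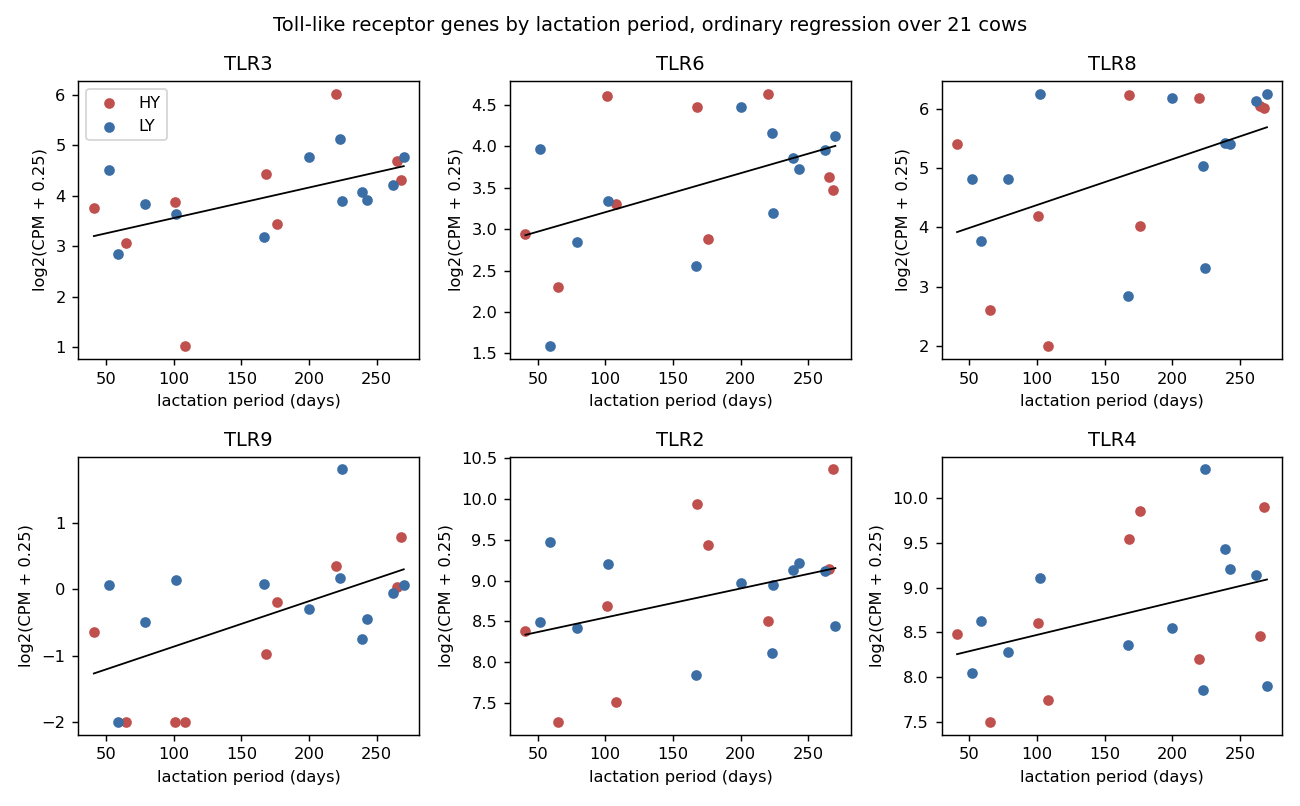
Log2(CPM + 0.25) of 6 Toll-like receptor genes by lactation period in days, 1 point per cow, with HY cows in red, LY cows in blue and the ordinary regression line over 21 cows. The lines rise in all 6 panels with r of 0.38 to 0.57, and no slope passed the correction over all genes.

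Slopes on lactation period were compared between HY and LY with an interaction term. None of the 10 was called (adjusted p = 0.99999 for each, 0.0% of all genes called), and 1 of 10 had an unadjusted p under 0.05, beside 1.27% of all genes. That gene was TLR2, whose slope was 0.85 ± 0.37 per 100 days steeper in HY (unadjusted p = 0.0328). Its r was 0.69 in the 9 HY cows. Without HY cows 3262 and 3280, which had the lowest TLR2 levels at 65 and 108 days, the unadjusted p was 0.189.

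To describe the cells behind the levels, a score was taken for each of 6 cell types as the mean log2(CPM + 0.25) of its marker genes. In such bulk samples, fewer cells of a type and less RNA per cell cannot be told apart. The neutrophil score used 8 markers, the macrophage score 9, the dendritic score 5, the T cell score 10, the B cell score 5 and the epithelial score 12. Summed neutrophil markers spanned 1798 to 14213 CPM in HY cows and 3225 to 11977 CPM in LY cows, and macrophage markers 2319 to 6746 CPM and 2368 to 6400 CPM. Summed B cell markers were low, at 6.09 to 112 CPM in HY cows and 20.6 to 104 CPM in LY cows.

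TLR4 and TLR2 rose with the neutrophil score and were the 2 of 10 genes called, where 8.94% of all genes were called. TLR4 had r = 0.68 (permutation p = 0.00064) and rho = 0.68 (permutation p = 0.00096), with an adjusted p of 0.0162. TLR2 had r = 0.63 (permutation p = 0.0022) and rho = 0.59 (permutation p = 0.00514), with an adjusted p of 0.0326. With permutation p of rho adjusted over all genes in place of these, TLR4 was at 0.0170 and TLR2 at 0.0514. In the 16 cows of lower mapping rate TLR4 was called (r = 0.75, adjusted p = 0.0247) and TLR2 was not (r = 0.67, adjusted p = 0.0730), and without the 2 cows of most distant score r was 0.57 and 0.40. Within HY, r was 0.84 for TLR4 and 0.80 for TLR2, and within LY it was 0.46 and 0.16, a difference between groups that was not tested. Both calls held with the log2 TMM factor as a covariate, at r of 0.67 and 0.63. In the 19 cows without the 2 casein-rich libraries TLR4 was called (r = 0.62, adjusted p = 0.0469) and TLR2 was not (r = 0.52, adjusted p = 0.122), while TLR1, at r = -0.18 over 21 cows, fell with the score there (r = -0.63, adjusted p = 0.0460). TLR2 was also not called without HY cow 3014 (r = 0.53), which had the highest TLR2 level, or without HY cow 3235 or HY cow 3280.

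Single neutrophil markers differed in how closely they followed the receptors. With TLR4 as the predictor, 4 of 8 were called, where 9.58% of all genes were, among them CXCR2, a chemokine receptor of neutrophils (r = 0.76, adjusted p = 0.00415), G0S2 (r = 0.69) and PADI4, which citrullinates histones in neutrophils (r = 0.64). With TLR2, 2 of 8 were called, where 8.25% of all genes were, among them CXCR2 (r = 0.70). S100A12, a calcium-binding protein abundant in neutrophils, had r = 0.14 with TLR4 and 0.19 with TLR2.

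The dendritic list gave the closest relation with a cell type list. TLR4 had r = 0.87 with that score (permutation p = 1e-05, the smallest that 100000 permutations can give) and rho = 0.89 (permutation p = 1e-05), with an adjusted p of 6.54e-05, and TLR2 had r = 0.64 (permutation p = 0.00158) and rho = 0.69 (permutation p = 0.00073), with an adjusted p of 0.0192. These 2 of 10 were called, where 14.0% of all genes were. All 5 markers were called with TLR4, from CCR7 (r = 0.63) and ZBTB46 (r = 0.64) to XCR1 (r = 0.74). Most of their reads were from CD83 and CCR7, which other activated leukocytes express too, while XCR1 averaged 3.02 CPM and ZBTB46 1.09 CPM. The score also had r = 0.86 and rho = 0.86 with the neutrophil score. Within HY and LY, TLR4 had r of 0.85 and 0.91 with the dendritic score. TLR4 held at r = 0.86 in the 19 cows without the casein-rich libraries and at r = 0.83 in the 16 cows of lower mapping rate, and TLR2 was called in neither (r = 0.58 and 0.68, adjusted p = 0.0678 and 0.0607).

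**Figure D3:**
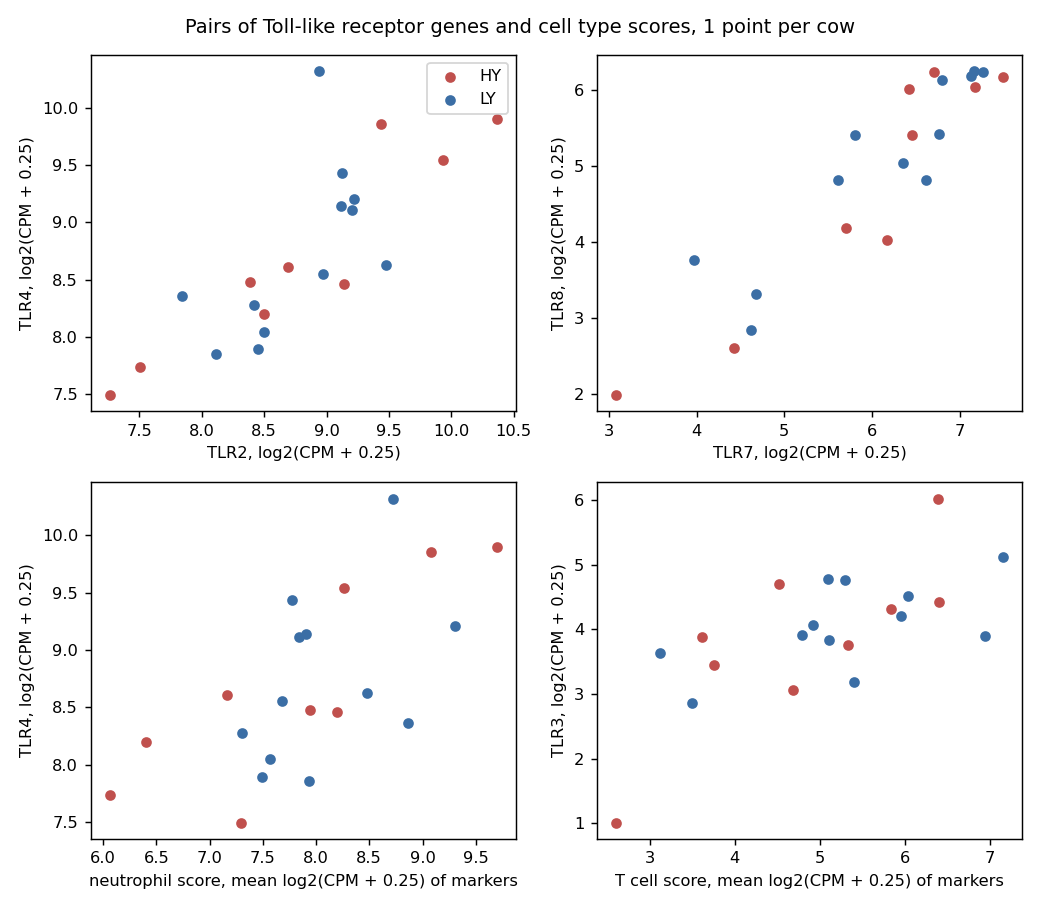
Log2(CPM + 0.25) of TLR4 against TLR2, TLR8 against TLR7, TLR4 against the neutrophil score and TLR3 against the T cell score, 1 point per cow, with HY in red and LY in blue. TLR7 and TLR8 lie close to a line (r = 0.92), and LY cow 7643 is the highest point in TLR4 while its TLR2 level is near the middle.

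Against the macrophage score 1 of 10 genes was called, where 10.3% of all genes were. This was TLR5, with r = 0.59 (permutation p = 0.00442), rho = 0.45 (permutation p = 0.0425, 0.186 when adjusted over all genes) and an adjusted p of 0.0484. Among the 9 markers, MERTK, a receptor for the uptake of dead cells (r = 0.74), CSF1R, the receptor for the macrophage growth factor (r = 0.76), and CD163, the haemoglobin scavenger receptor (r = 0.60), were called with TLR5, where 19.8% of all genes were. The call on the score was lost when any of 14 of the 21 cows was left out, in the 19 cows without the casein-rich libraries (adjusted p = 0.130), in the 16 cows of lower mapping rate (adjusted p = 0.0909) and with the TMM factor as a covariate (r = 0.39, adjusted p = 0.268). TLR2 and TLR4 had r of -0.11 and -0.05 with the macrophage score.

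TLR3 and TLR9 rose with the T cell score, 2 of 10 genes where 4.81% of all genes were called. TLR3 had r = 0.69 (permutation p = 0.00037), rho = 0.61 (permutation p = 0.0038, 0.0817 when adjusted over all genes) and an adjusted p of 0.0246. TLR9 had r = 0.63 (permutation p = 0.00236), rho = 0.57 (permutation p = 0.00896, 0.130 when adjusted) and an adjusted p of 0.0489. Single T cell markers gave the same picture, with 8 of 10 called for TLR3 (22.6% of all genes), led by the T cell receptor chain CD3G (r = 0.81), CD2 (r = 0.76) and CD8A (r = 0.75), and 8 of 10 for TLR9 (15.6% of all genes), led by CD4 (r = 0.68). In the 16 cows of lower mapping rate r was 0.76 for TLR3 and 0.63 for TLR9, and neither was called (adjusted p = 0.0642 and 0.206). HY cow 3280, the lowest point in both TLR3 and the T cell score, carried part of the relation, and without it TLR3 had r = 0.57 and was not called. The TLR9 call was lost when any of 17 cows was left out. Neither gene was called in the 19 cows (r = 0.58 and 0.57, adjusted p = 0.170 and 0.191) or with the TMM factor as a covariate (r = 0.55 and 0.47, adjusted p = 0.267 and 0.412).

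The B cell score was related to TLR10 and TLR3, 2 of 10 genes where 3.84% of all genes were called. The score itself had r = 0.71 and rho = 0.58 with the T cell score. The part of T cells in the relations with the B cell score was not tested. TLR10 had r = 0.66 (permutation p = 0.00098), rho = 0.62 (permutation p = 0.00333, 0.272 when adjusted over all genes) and an adjusted p of 0.0395. With TLR10 as the predictor 2 of 5 B cell markers were called, where 24.9% of all genes were. MS4A1, which encodes CD20 (r = 0.58), was among them, and CD79A (r = 0.35) was not. Of the T cell markers 5 of 10 were called with TLR10, led by CD3G (r = 0.74), while TLR10 was not called with the T cell score (r = 0.57, adjusted p = 0.0862). TLR3 had r = 0.65 (permutation p = 0.00219, 0.0566 when adjusted), rho = 0.50 (permutation p = 0.0229, 0.344 when adjusted) and an adjusted p of 0.0457. TLR10 and MS4A1 rest on low counts, with no count in some cows. The calls on TLR10 and TLR3 were lost when any of 10 and 11 cows was left out. Neither relation was called in the 19 cows (r = 0.60 and 0.40), in the 16 cows of lower mapping rate (r = 0.68 and 0.65, adjusted p = 0.108 and 0.121) or with the TMM factor as a covariate (r = 0.41 and 0.36).

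With the epithelial score all 10 genes had a negative r, from -0.05 (TLR6) to -0.54 (TLR9), and 0 of 10 were called, where 20.3% of all genes were. The median r was -0.31, beside -0.09 over all genes. TLR9 (adjusted p = 0.0572) and TLR5 (r = -0.52, adjusted p = 0.0711) were nearest to the threshold. The negative sign held under each scaling, but 6 of 10 genes had a positive r in the 19 cows and 6 of 10 with the TMM factor as a covariate.

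**Figure D4:**
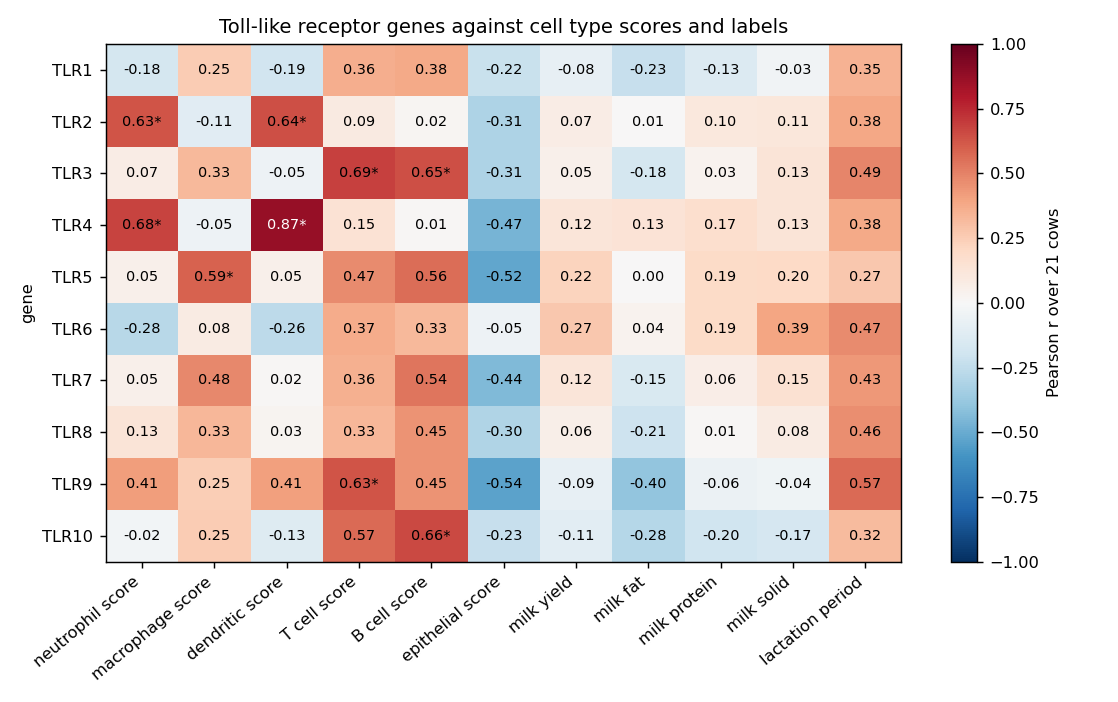
Pearson's r over 21 cows of each Toll-like receptor gene with 6 cell type scores, 4 milk trait values and lactation period, red for positive and blue for negative, with a star for an adjusted p under 0.05 over all genes. Stars are on TLR2 and TLR4 for the neutrophil and dendritic scores, TLR5 for the macrophage score, TLR3 and TLR9 for the T cell score and TLR3 and TLR10 for the B cell score, and on no trait.

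Among themselves the 10 genes formed 45 pairs. Each gene was tested as the predictor of all other genes, and a pair was called where the adjusted p was under 0.05 for at least 1 of its 2 genes as predictor. By that rule 23 of 45 pairs were called, all with a positive r, where the share of all genes called was 8.25% (TLR2), 9.58% (TLR4), 15.6% (TLR9), 19.8% (TLR5), 22.6% (TLR3), 23.7% (TLR6), 24.9% (TLR10), 27.5% (TLR8), 29.1% (TLR1) and 31.7% (TLR7). The median r of the 45 pairs was 0.55. The shares of all genes were above 15% for each predictor other than TLR2 and TLR4.

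TLR2 and TLR4 were paired with each other. Their r was 0.79 (permutation p = 1e-05, the smallest possible) and rho 0.82 (permutation p = 2e-05), with adjusted p of 0.0024 and 0.0019 with either gene as predictor. It was 0.94 in HY and 0.61 in LY, 0.88 in the 16 cows of lower mapping rate, 0.74 in the 19 cows and 0.78 with the TMM factor as a covariate. The ratio of TLR4 to TLR2 counts had a median of 0.936 and lay between 0.554 and 1.43 in 20 cows, and it was 2.60 in LY cow 7643. Without that cow r was 0.88.

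TLR4 had r of -0.01 to 0.22 with TLR1, TLR3, TLR5, TLR6, TLR7, TLR8 and TLR10, and none of these 7 pairs was called. TLR2 had r of 0.12 to 0.58 with the same genes, including its partners TLR1 (r = 0.35, rho = 0.11) and TLR6 (r = 0.17, rho = 0.13). Only the pair with TLR8 was called (r = 0.58, rho = 0.41, permutation p = 0.0056 and 0.0638), and it was at r = 0.34 in the 19 cows without the casein-rich libraries and not called there.

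The other genes moved together. Of the 21 pairs within TLR1, TLR3, TLR5, TLR6, TLR7, TLR8 and TLR10, a set chosen after their values were seen, 19 were called, with r from 0.48 to 0.92. TLR7 and TLR8, which neighbour each other in the RefSeq annotation, had the highest, r = 0.92 and rho = 0.91 (permutation p = 1e-05 for both, the smallest possible). No other gene of the table had a higher r with TLR8, and 9 had a higher r with TLR7. The ratio of TLR7 to TLR8 counts nevertheless ran from 1.15 in LY cow 2893 to 4.49 in HY cow 3235, with a median of 2.20. TLR1 and TLR10 had r = 0.87 and rho = 0.80 (permutation p = 1e-05 and 4e-05), TLR1 and TLR8 r = 0.85 and rho = 0.81, and TLR3 and TLR7 r = 0.83 and rho = 0.73. Within the LY cows the same 4 pairs were at r = 0.91, 0.86, 0.85 and 0.71, and within HY at 0.94, 0.87, 0.86 and 0.94. The division of reads among TLR1, TLR6 and TLR10 is uncertain, and the ratio of TLR10 to TLR1 counts had a median of 0.035. The part of that division in the pairs of these genes with each other was not tested.

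TLR9 stood between, called with TLR3 (r = 0.55, rho = 0.51) and TLR5 (r = 0.56, rho = 0.38) alone, and each of these 2 calls was lost when any of 12 cows was left out.

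The TMM factor moved with the same genes. Its log2 value was called with 7 of 10 receptor genes, where 30.3% of all genes were called: TLR7 (r = 0.81), TLR1 (r = 0.77), TLR8 (r = 0.74), TLR3 (r = 0.73), TLR10 (r = 0.71), TLR9 (r = 0.61) and TLR5 (r = 0.61). For TLR6, TLR2 and TLR4 it was at r = 0.48, 0.38 and 0.26. With this factor as a covariate 5 of 45 pairs were called, all of them among the 23: TLR7 and TLR8 (r = 0.82), TLR2 and TLR4 (r = 0.78), TLR1 and TLR10 (r = 0.73), TLR1 and TLR6 (r = 0.65) and TLR1 and TLR8 (r = 0.65). The share of all genes called fell as well for every predictor but TLR4 (10.2%). It was 20.9% (TLR1), 12.8% (TLR6), 5.23% (TLR2), 1.44% (TLR7), 1.39% (TLR8), 0.795% (TLR5), 0.405% (TLR9), 0.00811% (TLR3) and 0% (TLR10). The median r of the 21 pairs was then 0.51, in place of 0.75. In the 19 cows 19 pairs were called, where the share of all genes ran from 1.1% (TLR2) to 25.9% (TLR7). With the neutrophil, macrophage and T cell scores as covariates, 19 pairs were called, 17 of them among the 23, and TLR7 with TLR8 was at r = 0.91 and TLR2 with TLR4 at r = 0.65. The share of all genes called with these scores as covariates is not given, so that count is not read as a result about the receptors. The number of genes with a count was called with 8 of 10 receptor genes, all but TLR2 and TLR4 (27.0% of all genes), led by TLR10 (r = 0.76) and TLR7 (r = 0.68). The share of counts on the casein genes and LALBA was called with TLR4 (r = -0.59) and TLR9 (r = -0.60), where 17.8% of all genes were. Total counts per library had r between -0.25 and 0.25 with all 10 genes, and 0.0% of all genes were called with it. The part of these library measures in the relations was not tested beyond the covariate and the 19 cows.

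**Figure D5:**
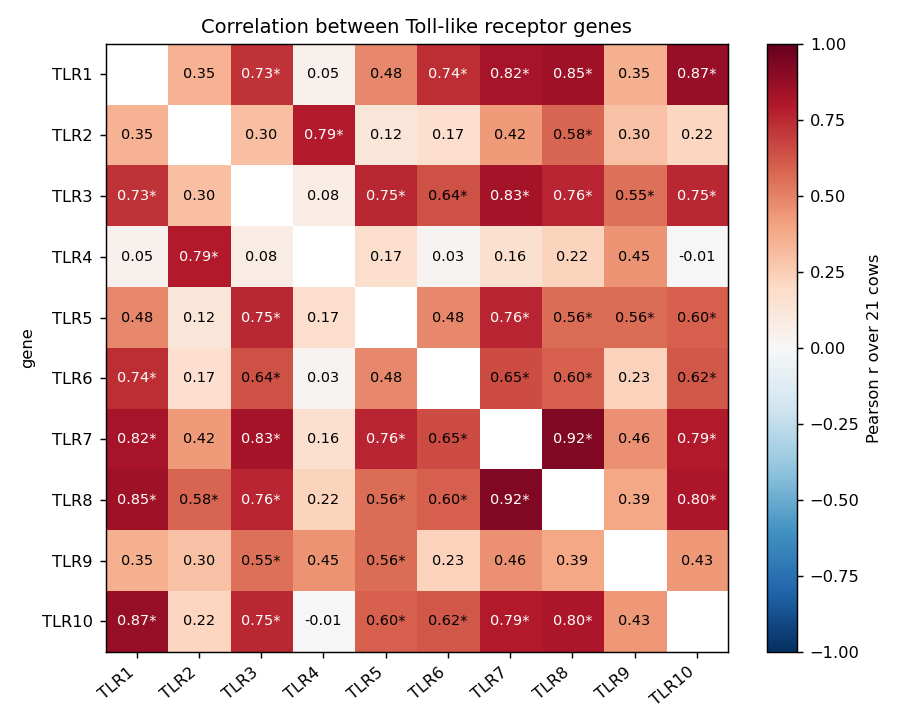
Pearson's r over 21 cows between the 10 Toll-like receptor genes, with a star for pairs called at an adjusted p under 0.05. TLR4 is near white against most other genes, TLR2 ranges from 0.12 (TLR5) to 0.58 (TLR8) with them, and the 2 are red with each other (0.79). The darkest cell is TLR7 with TLR8 (0.92).

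The genes whose levels were most like each receptor, by Spearman's rho over 21 cows among 7140 genes that reached 10 counts in each cow, were named for the 9 receptors with a mean of at least 1 CPM. For TLR4 they were SERPINB2, an inhibitor of plasminogen activators (rho = 0.94), IL10RB, a chain of the interleukin-10 receptor (0.92), and VEGFA, the vascular growth factor (0.91). For TLR2 they were PIAS1 (0.94), the histone demethylase KDM3A (0.90) and the interferon gamma receptor IFNGR1 (0.90). The genes named for TLR4 and those named for TLR2 did not overlap. These lists are very short beside the 7140 genes compared, so this is not read as a difference between the 2 receptors.

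For TLR7 the nearest genes were HIATL1 (rho = 0.96), BNIP2 (0.94) and CCDC47 (0.93), and for TLR8 the vesicle transport gene TMED2 (0.93) and ABI1 (0.92). For TLR1 they were FAM210A (0.94), PPIG (0.93) and PLEKHA1 (0.92), and for TLR3 PPIG (0.89), TMPO (0.89) and SMCHD1 (0.88). TLR6 was most like the helicase gene DHX36 (0.89), GTF2H3 (0.88) and ICK (0.88), and TLR10 most like APOL3 (0.86), SNX6 (0.81) and ANKRD40 (0.80). Values were lowest for TLR5, with GK (0.73), ENDOD1 (0.73) and APP (0.70).

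Genes of the Toll-like receptor pathway were compared with the receptors through a list of 48 co-receptors, adaptors, kinases, transcription factors, inhibitors and induced cytokines, of which 46 had counts. With TLR4 as the predictor 16 of 46 rose and none fell (34.8%, beside 9.58% of all genes), and the median r was 0.46 beside 0.00 over all genes. The inhibitor NFKBIA, itself induced by NF-kappaB, was at r = 0.86, the NF-kappaB subunit NFKB1 at 0.86, the neutrophil attractant IL8 at 0.85 and the kinase IRAK2 at 0.83. TNFAIP3, a brake on NF-kappaB, was at r = 0.83, RIPK1 at 0.82, the adaptor TIRAP at 0.79 and the ubiquitin ligase TRAF3 at 0.77. MYD88 was called as well (r = 0.72, adjusted p = 0.00812). The partners of TLR4 at the membrane were not called, with r = 0.58 for CD14 (adjusted p = 0.0595) and -0.09 for LY96 (adjusted p = 0.852), and UNC93B1 was at 0.36. In the 19 cows 16 were called, all positive, where 4.58% of all genes were, and with the TMM factor as a covariate 19 were, where 10.2% of all genes were.

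With TLR2 as the predictor 9 of 46 pathway genes rose and none fell (19.6%, beside 8.25% of all genes), with a median r of 0.28 beside -0.02 over all genes. NFKB1 was at r = 0.84, the ubiquitin ligase PELI1 at 0.77, NFKBIA and IL8 at 0.73, TNFAIP3 and RIPK1 at 0.72, IL10 at 0.70 and TRAF3 at 0.68. CD14 (r = 0.31), LY96 (-0.04), MYD88 (0.49) and UNC93B1 (0.04) were not called. In the 19 cows 2 of 46 were called, where 1.1% of all genes were.

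The dendritic score, the one closest to TLR4, moved with the most pathway genes among the 6 scores, 20 of 46 rising and 2 falling with it (47.8%, beside 14.0% of all genes), with a median r of 0.53 beside 0.01 over all genes. NFKBIA was at r = 0.86 with it, IRF7 at 0.86, NFKB1 at 0.85 and MYD88 at 0.84. CD14 (r = 0.52), LY96 (0.17) and UNC93B1 (0.56) were not called. With the neutrophil score 13 of 46 rose and 2 fell (32.6%, beside 8.94% of all genes). MYD88 had r = 0.89 with that score, RIPK1 0.82, NFKBIA 0.81, IRF7 0.80, TRAF3 0.79, NFKB1 0.77, IL1B 0.77 and IL8 0.69, while the scavenger receptor CD36 (-0.66) and the adaptor TICAM2 (-0.63) fell. CD14 and LY96 were both at r = 0.26 with the neutrophil score and UNC93B1 at 0.46, none of them called, and with the macrophage score CD14 was called (r = 0.64, adjusted p = 0.0269). The part of the dendritic and neutrophil markers in the relation between TLR4 and the pathway was not tested.

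For TLR1 and TLR7 the share of pathway genes called was near or below that of all genes, so the members below are a description. With TLR1 as the predictor 8 of 46 rose and 7 fell (32.6%, beside 29.1% of all genes, 2011 of which rose and 1582 fell). The kinase partner TAB2 (r = 0.81), the chaperone HSP90B1, which folds these receptors (0.78), the kinases MAP3K7 (0.74), CHUK (0.62), TBK1 (0.58), IRAK4 (0.58) and IRAK3 (0.55) and CD180 (0.53) rose. The interferon factor IRF3 (r = -0.85), the NF-kappaB subunit RELA (-0.74), the chaperone CNPY3 (-0.71), IKBKE (-0.67), TAB1 (-0.62), LY96 (-0.59) and LBP (-0.53) fell. CD14 (r = 0.14), MYD88 (-0.42) and UNC93B1 (-0.30) were not called with TLR1.

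With TLR7 as the predictor 5 rose and 6 fell (23.9%, beside 31.7% of all genes, 2250 of which rose and 1665 fell). HSP90B1 (r = 0.81), TAB2 (0.69), the kinase TBK1 (0.63), MAP3K7 (0.62) and CD180, a relative of TLR4 (0.61), rose, and IRF3 (-0.73), LBP, the lipopolysaccharide binding protein (-0.65), RELA (-0.59), SIGIRR (-0.57), IKBKE (-0.56) and TAB1 (-0.54) fell. UNC93B1, the chaperone that TLR7 needs, was at r = 0.06, MYD88 at -0.22, CD14 at 0.44 and LY96 at -0.41, none of them called. With the TMM factor as a covariate 0 of 46 were called with TLR7, where 1.44% of all genes were, and 5 rose and 10 fell with TLR1, where 20.9% of all genes were.

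Pathway genes were not called for HY against LY, milk yield, milk fat, milk protein, milk solid or lactation period (0 of 46 in each). At an unadjusted p under 0.05 there were 0 of 46 too, except 11 of 46 for lactation period (23.9%, beside 20.3% of all genes). CD14 was at r = 0.22 with lactation period, LY96 at -0.38, MYD88 at 0.23 and UNC93B1 at -0.04. In HY against LY their log2 fold changes were 0.24, 0.11, -0.07 and 0.11.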

How the data were processed

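RNA of milk somatic cells from 21 cows was sequenced as paired reads. For each cow the authors deposited counts of reads per gene without normalization, made with Trimmomatic (minimum length 75), Bowtie2 within TopHat2 on bosTau7, SAMtools and HTSeq. The strand setting of the counting is not given in the sources used here. A row named null (0.036% to 0.15% of counts) and the HTSeq summary rows were left out, and 23 rows whose symbols had turned into dates stayed in.

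Groups came from the labels' yielding group. HY and LY were compared with edgeR 4.0.16 (quasi-likelihood, all 12333 genes with a count, Benjamini-Hochberg adjustment) and with an exact two-sided permutation test over 293930 choices of HY cows. Traits, lactation period, scores and receptor genes were regressed on log2(TMM CPM + 0.25) over all genes, with adjustment over all of them and two-sided permutation p from 100000 permutations, for 110 relations and 45 pairs. Markers averaging under 1 CPM or absent from the table entered no score, nor did CXCR1, which had no count. Alternatives were DESeq2 1.42.0, its size factors, total counts, a pseudocount of 1, a minimum of 10 counts per cow, robust regression (MASS), covariates, mapping rate and leaving out each cow. The scripts were tested on simulated data. The mapping rates that split the cows came from the study's own records. Pathway genes were named as the called ones with the lowest p, at most 8 in each direction, and CD14, LY96, MYD88 and UNC93B1 always, and the 3 genes most like each receptor by rho. The members and lists were chosen with earlier results of these data known. Of the 10 receptor symbols, 9 matched the RefSeq gene table (ARS-UCD2.0), which was used only to see which genes neighbour each other. Values of a few marker and similar genes are not reported here.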

Additional observations from a re-analysis of the deposited data

Results flagged for a closer look

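The level of TLR5 in HY cow 3280 passed a test for a value far from the other 8 HY cows. The cow had no TLR5 count, and the gap to the next cow on the log2 scale was 0.567 of the whole range of the HY cows, above Dixon's 95% critical value of 0.493 for 9 values. That gap rests on the pseudocount of 0.25 CPM: with the cow set at 3 counts, the limit that no count allows, it was 0.381 of the range and below the critical value. Of 10 such tests in HY this was the only one past the critical value, where chance alone gives about 0.5 of 10. The library of that cow was casein-rich with a TMM factor of 0.498, and it also had the lowest TLR3, TLR7 and TLR8 levels of all cows. LY cow 2893 had no TLR5 count either, and the test was not run in the 12 LY cows.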

How the results depend on the processing

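For HY against LY, the 4 milk traits, lactation period, its interaction with group and the pathway genes against lactation period, 0 were called under every alternative run. Other counts of called receptor genes moved. With the neutrophil score (2), the count was 1 in the cows of lower mapping rate and 1 to 2 when a cow was left out, and in the 19 cows it stayed at 2 with TLR1 in place of TLR2. With the macrophage score (1), it was 8 with total counts, and 0 with DESeq2 size factors, with the minimum of 10 counts per cow, in the cows of lower mapping rate, with the TMM factor as a covariate and in the 19 cows, and 0 to 1 when a cow was left out. With the dendritic score (2), it was 1 with the minimum of 10 counts per cow, in the cows of lower mapping rate and in the 19 cows, and 1 to 2 when a cow was left out. With the T cell score (2), it was 8 with total counts, 1 with a pseudocount of 1, 0 with the minimum of 10 counts per cow, in the cows of lower mapping rate, with the TMM factor as a covariate and in the 19 cows, and 0 to 2 when a cow was left out. With the B cell score (2), it was 8 with total counts, 0 with a pseudocount of 1, in the cows of lower mapping rate, with the TMM factor as a covariate and in the 19 cows, and 0 to 4 when a cow was left out. With the epithelial score (0), it was 1 with total counts, 1 with the TMM factor as a covariate (TLR1, r = 0.60) and 0 to 1 when a cow was left out. Of the pairs (23), 37 were called with total counts, 8 with the minimum of 10 counts per cow, where TLR3, TLR5, TLR9 and TLR10 were not tested, 5 with the TMM factor as a covariate and 19 to 27 when a cow was left out. With total counts the median r of all genes moved too, from 0.05 to 0.44 with the macrophage score and from 0.09 to 0.39 with the T cell score. It went from 0.12 to 0.45 with the B cell score and from -0.09 to -0.27 with the epithelial score. The share of all genes called is not set beside the counts in this paragraph, so they are not read as results about the receptors alone. Beyond the genes removed by the filter, the cause of these moves was not tested. The covariate of TMM factor, the 19 cows and the covariates of 3 cell scores in the pairs were chosen after the data were seen. No relation that was called over the 21 cows changed direction under an alternative. TLR1, not called with the epithelial score over the 21 cows (r = -0.22), had the opposite sign where it was called with the covariate. No paired analysis was possible because the labels name each cow by its own number and give no replicate numbers that HY and LY share. Depth limits TLR5, TLR9 and TLR10 most, with no count in 2 to 4 cows each.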
